A study of Mus musculus with 24 samples.

Results

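The genes described here are 10 genes of p53 signalling and growth arrest, namely *Cdkn1a*, *Cdkn1c*, *Gadd45a*, *Gadd45b*, *Gadd45g*, *Mdm2*, *Ccng1*, *Btg2*, *Trp53inp1* and *Trp53inp2*. They were taken by name: every non-control probe that the scanner output assigns to 1 of these symbols was used. This gave 13 of the 55681 probes on the array, and each of the 10 genes had at least 1 probe that passed the filter on dim probes, so that all 10 were among the 9138 genes tested.

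The study asked how skeletal muscle responds to a short exposure to mild hypoxia. The animals were male mice of strain C57BL/6JOlaHsd that came in at an age of 10 weeks, were kept in single housing, received a low-fat diet (10% of energy from fat) for 3 weeks and then a high-fat diet (40%) for 6 weeks, and were fasted before the experiment. The 12 Norm mice stayed at 20.9% oxygen and the 12 Hypox mice were kept at 12% oxygen for 6 h, after which *M. gastrocnemius*, a mixed calf muscle, was taken. Each of the 24 arrays carried the RNA of 1 mouse in the Cy5 channel against a reference that pooled all samples (Cy3). A level is therefore given as the log2 ratio of Cy5 over Cy3 after loess normalization. A difference is the Hypox mean less the Norm mean on that scale. The pool held all samples, yet both group means of a gene could lie above 0, as for *Mdm2* (0.40 in Norm and 0.62 in Hypox). A level of 0 is therefore not read as the level of the pool. All mice had the same strain, sex and diets, so that the groups describe hypoxia in fat-fed and fasted males and not in lean or fed animals.

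p53 is a transcription factor that is stabilised when DNA is damaged or the cell is otherwise stressed, and MDM2, itself a product of a p53 target gene, is the ubiquitin ligase that brings it down again. Its target genes include inhibitors of cyclin-dependent kinases and other antiproliferative factors that hold cells out of the cycle. Muscle fibres are post-mitotic, and several of these genes, among them *Cdkn1a* and the *Gadd45* family, are also known there as genes of denervation, fasting and glucocorticoid responses.

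The arrays lay on 6 slides with 2 Norm and 2 Hypox arrays each. The mean Cy5 signal of an array lay between 58.3 and 933 (Norm) or 63.5 and 1014 (Hypox) and followed the slide, with slide 1 dimmest and slide 6 brightest. On each slide the Hypox arrays were on average brighter than the Norm arrays, although single arrays overlapped on every slide except slide 4. The part of this in the differences was not tested. All 14 fibre markers were well above background on all 24 arrays, with *Tnni2* and *Tnnc2*, fast troponin subunits, brightest. Hypox replicate 2 stood apart, since it was the highest of the 24 arrays for 21.7% of the genes and the lowest for 13.0%, against at most 9.06% and 10.8% on any other array. In a bulk sample, fewer cells that express a gene and less of its RNA per cell cannot be told apart.

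After 6 h of hypoxia, the growth arrest genes did not move as a block. *Gadd45g*, *Gadd45a* and *Btg2* were higher in Hypox and *Gadd45b* and *Trp53inp2* lower at an unadjusted P-value below 0.05, the threshold of the study, in limma's moderated test. That is 5 of 10 genes, where 12.2% of all genes tested passed the same threshold. Of all genes, 7.17% passed as higher and 5.07% as lower, against 3 and 2 of the 10. None of the 10 passed after Benjamini-Hochberg adjustment over all genes (0 of 10, beside 0.339% of all genes), and the lowest adjusted P-value was 0.189, for *Gadd45b*. The differences were small, from -0.31 to 0.28 on the log2 scale, and 8 of the 10 were above 0, as were those of 58.8% of all genes. The median of all genes lay at 0.029.

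**Figure D1:**
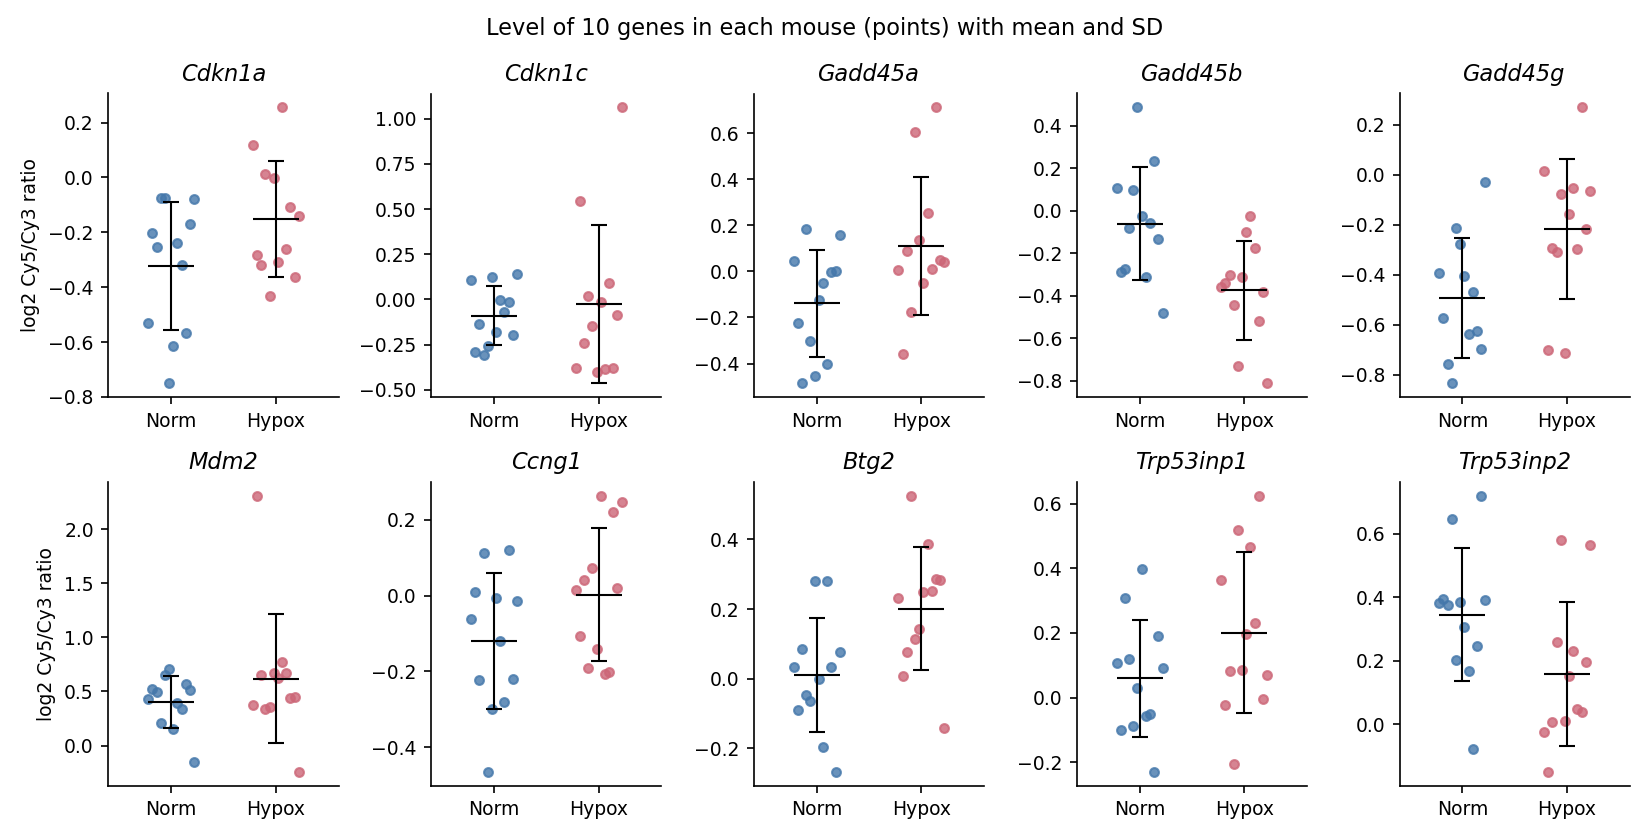
Log2 Cy5/Cy3 ratio of the 10 genes in each of 12 Norm (blue) and 12 Hypox (red) mice, 1 point per mouse and a panel per gene, with mean and SD in black and a scale of its own in each panel. The groups overlap for every gene, and single arrays stand out for *Mdm2* (2.31, Hypox replicate 2) and *Cdkn1c* (1.06, Hypox replicate 12).

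**Figure D2:**
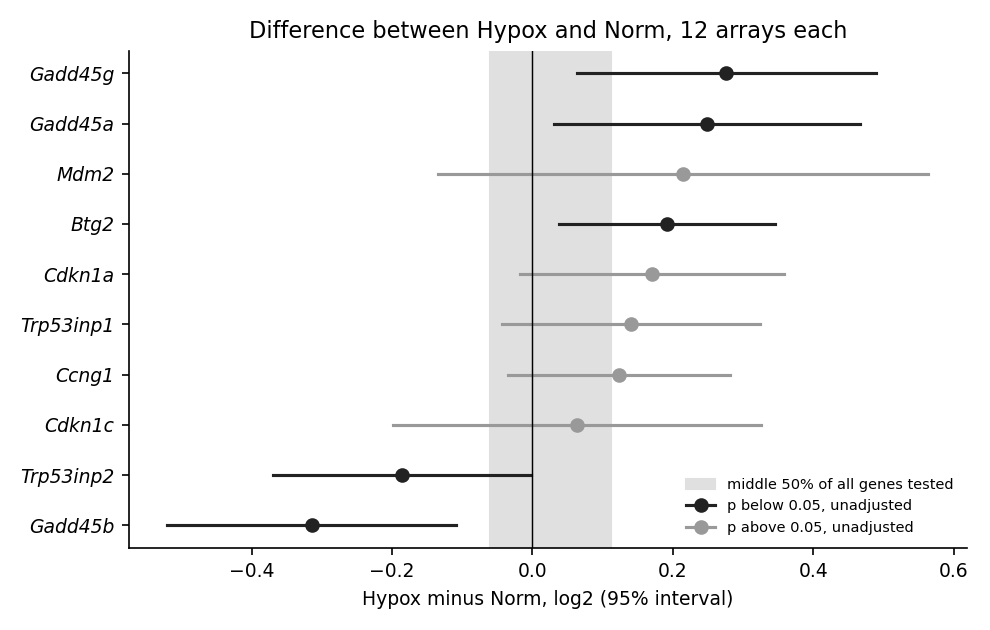
Hypox minus Norm difference of each gene on the log2 scale with its 95% confidence interval from limma (12 arrays per group), the grey band marking the middle 50% of all genes tested (-0.061 to 0.11). Black marks the 5 genes with an unadjusted P-value below 0.05, of which *Gadd45b* (-0.31) and *Trp53inp2* (-0.19) lie below 0.

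*Cdkn1a* encodes p21, the best known effector of p53 in cell cycle arrest, and *Cdkn1c* encodes p57, an imprinted inhibitor of the same family that acts in muscle differentiation. The level of *Cdkn1a* ran from -0.75 through a median of -0.25 to -0.073 in Norm and from -0.43 through -0.20 to 0.26 in Hypox. Of the 12 Hypox mice, 4 lay above the highest Norm mouse, whereas 6 lay above the Norm median. The means were -0.32 ± 0.23 (SD, n = 12) and -0.15 ± 0.21 (SD, n = 12), a difference of 0.17 ± 0.092 (SE) that did not pass the threshold (P-value = 0.0742, adjusted 0.457). It was above 0 on each of the 6 slides, from 0.059 to 0.25, as was the case for 4.74% of all genes.

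The main *Cdkn1a* probe (mm9 chr17:29237377-29237436, plus strand, transcript NM_007669) is printed in 10 spots per array. It averaged 3.40 times the local background, with at least 1 spot well above it on 10 Norm and 11 Hypox arrays. On slide 1, no array had most of its spots well above background. With 10 spots, the error between spots could be set against the spread between mice. The spread over the 10 spots of an array had a median SD of 0.16. The standard error of an array's mean over its spots, which is what enters the spread over mice, had a median of 0.051, and the SD over mice was 0.23 in Norm and 0.21 in Hypox. All 10 spots gave a higher mean in Hypox, by 0.031 to 0.24. The spots share their RNA, labelling and hybridization and are therefore not replicates of the condition. Error from those steps lies in the spread over mice. In the normalized log2 values that the authors deposited, the same 10 spots were also all higher, by 0.044 to 0.27, and 1 of them passed the t-test of the methods without adjustment (5.26% of deposited spots did so).

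**Figure D3:**
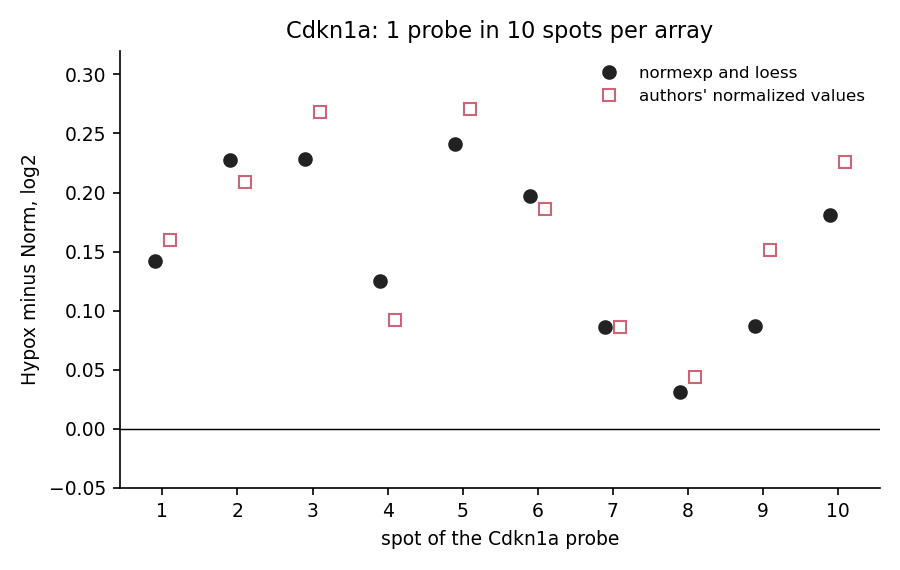
Hypox minus Norm difference (log2, 12 arrays per group) of each of the 10 spots of the main *Cdkn1a* probe, from the scanner signals after normexp and loess (filled circles) and from the authors' normalized values (open squares). All points lie above 0, between 0.031 and 0.27.

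*Cdkn1a* has 2 further probes, both at background (Cy5 1.19 and 1.14 times the local background), and neither was tested in the filtered table. One of them (mm9 chr17:29227986-29228045) belongs to NM_001111099, a transcript that begins upstream of the main one. On none of the 24 arrays did this spot count as well above background. The promoter of the upstream start, as RefSeq gives it for GRCm38.p6 (chr17:29090729-29091028, plus strand, 250 bases before to 50 after the start), is shown because it holds 2 matches to the p53 decamer motif, at -73 and -51 with the start at 0, printed in capitals.

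Cdkn1a: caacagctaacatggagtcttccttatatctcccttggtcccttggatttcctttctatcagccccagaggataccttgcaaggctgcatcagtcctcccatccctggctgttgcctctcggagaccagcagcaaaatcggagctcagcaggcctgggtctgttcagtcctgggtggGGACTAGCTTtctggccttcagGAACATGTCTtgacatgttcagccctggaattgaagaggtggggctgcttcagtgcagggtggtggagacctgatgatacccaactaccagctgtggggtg

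That motif, the consensus repeat unit of a p53 response element, was found in 8.36% of 32851 mouse promoters of this length, and in 4 of the 9 promoters at hand for 8 of the 10 genes (*Cdkn1a*, *Gadd45a*, *Mdm2* and *Ccng1*). The second *Cdkn1a* promoter held none.

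For *Cdkn1c*, 2 Hypox arrays lay far above the rest. The level ran from -0.31 through -0.10 to 0.14 in Norm and from -0.40 through -0.12 to 1.06 in Hypox, so that the medians lay side by side while the Hypox SD (0.44, n = 12) was larger than that of Norm (0.16, n = 12). Hypox replicates 12 and 2 held the values of 1.06 and 0.54, and 4 Hypox mice lay below the lowest Norm mouse. The difference of 0.063 ± 0.13 (SE, P-value = 0.623) became -0.036 without Hypox replicate 12. It was above 0 on 2 of 6 slides, by 0.79 on slide 1, which holds that array. The probe lies at mm9 chr7:150644753-150644812 on the minus strand.

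The GADD45 proteins are small stress sensors that bind p21 and PCNA and activate MAP kinase cascades through MAP3K4. *Gadd45a* is a direct p53 target, while *Gadd45b* and *Gadd45g* respond mainly to cytokines, growth factors and NF-κB. Their members went in opposite directions here: *Gadd45a* and *Gadd45g* were higher and *Gadd45b* was lower.

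For *Gadd45b*, Norm levels ran from -0.48 through -0.069 to 0.49 and Hypox levels from -0.81 through -0.35 to -0.025. No Hypox mouse lay above the highest Norm mouse, 3 lay below the lowest, and 1 of 12 lay above the Norm median. The mean fell from -0.061 ± 0.27 (SD, n = 12) to -0.38 ± 0.23 (SD, n = 12), a difference of -0.31 ± 0.10 (SE) or 0.804-fold, with a P-value of 0.00409 (adjusted 0.189). This was the lowest P-value of the 10 genes and the 196th of all 9138. It was below 0 on all 6 slides, from -0.52 to -0.12, as was the case for 3.51% of all genes. The P-value stayed between 0.00132 and 0.00901 when any 1 of the 24 arrays was left out and reached 0.0207 at most when a slide was left out. With limma on the deposited values the difference was -0.24 (P-value = 0.275), and with median centring 0.0066 (P-value = 0.986).

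*Gadd45g* had the largest increase of the 10 genes in the reported fit, but *Btg2*, *Gadd45a* or *Mdm2* came first under several other settings. Examples are the processed signals of the scanner software, where *Btg2* (0.70), *Cdkn1a* (0.35) and *Gadd45a* (0.29) exceeded its 0.27, and the fit without slide 1, where *Gadd45a* (0.33) and *Mdm2* (0.32) exceeded its 0.22. Its level ran from -0.83 through -0.52 to -0.029 in Norm and from -0.71 through -0.19 to 0.27 in Hypox, and 10 of 12 Hypox mice were above the Norm median. The 2 lowest Hypox values, -0.71 and -0.70, came from replicates 6 and 2. The means of -0.49 ± 0.24 (SD, n = 12) and -0.22 ± 0.28 (SD, n = 12) differed by 0.28 ± 0.10 (SE), 1.21-fold, with a P-value of 0.013 (adjusted 0.26). It passed with any 1 array left out, at 0.23 to 0.32. It did not pass without slide 1 (0.22, P-value = 0.0706) or without slide 2 (0.22, P-value = 0.0731), nor with limma on the deposited values, where the difference was 0.55 (P-value = 0.134). On 5 of 6 slides it was above 0, with the exception of slide 6 at -0.073.

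*Gadd45a* was less even over the slides. Norm ran from -0.49 through -0.087 to 0.18 and Hypox from -0.36 through 0.046 to 0.71, with 10 of 12 Hypox mice above the Norm median. The difference of 0.25 ± 0.11 (SE, P-value = 0.0272, adjusted 0.333) came with slide values of 0.87 on slide 2 and 0.56 on slide 4, but -0.16 on both slides 1 and 3. Hypox replicates 10 and 5, at 0.71 and 0.60, were the highest mice. The gene passed in 20 of 24 fits with an array dropped (highest P-value 0.0601) and in 3 of 6 with a slide dropped. Without slide 2 the difference was 0.12 (P-value = 0.257) and without slide 4 it was 0.19 (P-value = 0.111). Without slide 5 it stayed at 0.25, with a P-value of 0.0578. On the deposited values it was 0.27, with a P-value of 0.0513 in limma and 0.047 in the t-test of the methods.

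**Figure D4:**
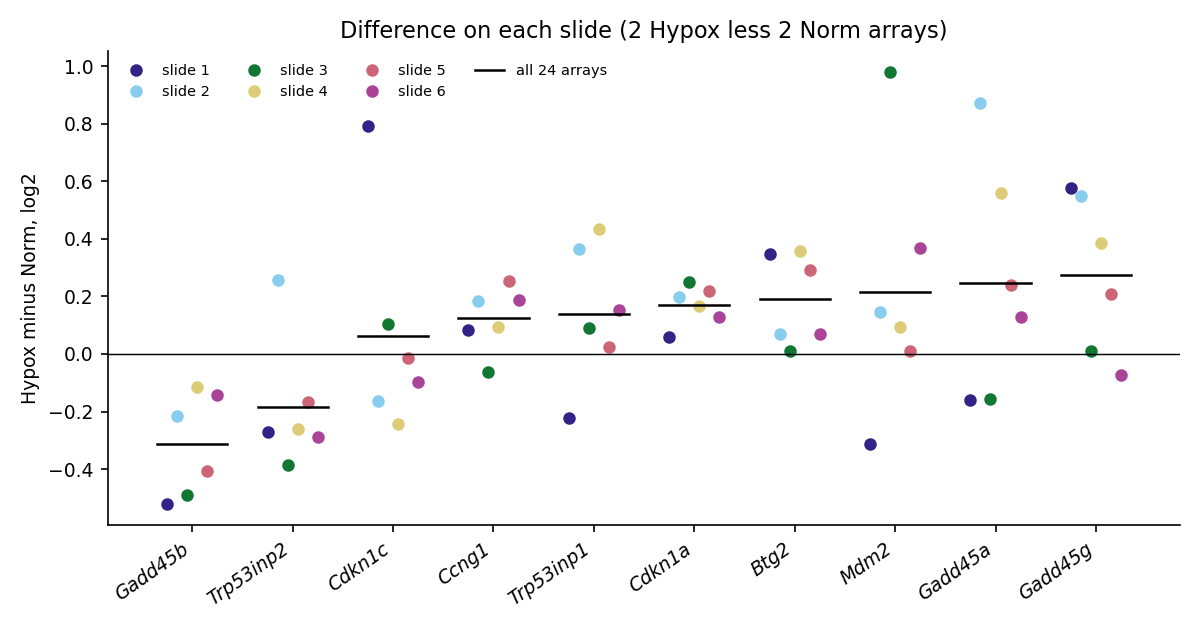
Hypox minus Norm difference (log2) of each gene on each of the 6 slides (coloured points, 2 Hypox arrays less 2 Norm arrays) with the difference over all 24 arrays as a black line. *Gadd45b* lies below 0 and *Btg2* and *Cdkn1a* above 0 on all 6 slides, while the highest slide of *Cdkn1c* is slide 1 (0.79), that of *Mdm2* slide 3 (0.98) and that of *Gadd45a* slide 2 (0.87, followed by slide 4 at 0.56).

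The promoters of the 3 genes are shown because the genes moved in opposite directions. Capitals mark the p53 decamer and 3 further motifs, each searched on both strands. The box bound by the factor NF-Y was searched as CCAAT. For the TATA box the letters were TATAAA. An E-box was searched as CACGTG, and the core of a hypoxia response element, which that E-box contains, was also searched alone, with the letters ACGTG. The regions in GRCm38.p6 are chr6:67037358-67037657 on the minus strand for *Gadd45a*, chr10:80929841-80930140 on the plus strand for *Gadd45b* and chr13:51846425-51846724 on the plus strand for *Gadd45g*.

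Gadd45a: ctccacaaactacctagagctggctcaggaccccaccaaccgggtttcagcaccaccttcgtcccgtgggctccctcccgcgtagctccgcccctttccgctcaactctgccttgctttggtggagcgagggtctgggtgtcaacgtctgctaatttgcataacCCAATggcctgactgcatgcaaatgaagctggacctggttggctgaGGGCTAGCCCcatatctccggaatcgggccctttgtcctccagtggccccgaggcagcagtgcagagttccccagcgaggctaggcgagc
Gadd45b: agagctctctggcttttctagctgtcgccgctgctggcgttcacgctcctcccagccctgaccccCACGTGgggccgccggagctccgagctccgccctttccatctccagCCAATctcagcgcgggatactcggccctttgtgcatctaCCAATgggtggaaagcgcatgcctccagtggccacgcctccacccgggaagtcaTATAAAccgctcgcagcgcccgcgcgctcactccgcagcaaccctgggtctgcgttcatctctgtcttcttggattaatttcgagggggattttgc
Gadd45g: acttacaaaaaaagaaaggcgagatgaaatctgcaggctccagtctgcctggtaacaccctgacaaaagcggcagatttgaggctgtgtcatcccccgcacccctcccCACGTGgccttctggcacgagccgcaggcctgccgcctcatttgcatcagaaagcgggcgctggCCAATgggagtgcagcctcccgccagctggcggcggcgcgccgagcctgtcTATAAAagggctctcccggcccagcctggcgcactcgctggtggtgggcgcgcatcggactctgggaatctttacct

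*Gadd45b* and *Gadd45g*, which differed in direction, both held a TATA box, the E-box and the NF-Y box, whereas *Gadd45a* held the NF-Y box and the p53 decamer. The NF-Y box was present in 37.4% of all promoters of this length, the TATA box in 13.6%, the E-box in 7.15% and the shorter hypoxia core in 19.6%. Each match to that core in the promoters at hand lay within an E-box match, on both strands, since the E-box is its own reverse complement. AGAACA, a part of the glucocorticoid response element, occurred in 19.0% of all promoters and in 0 of the 9 at hand. A match describes the letters in the window and is not a binding site.

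The probes of these 3 genes were bright to moderate in Cy5, at 4.66 (*Gadd45a*), 11.1 (*Gadd45b*) and 78.0 times (*Gadd45g*) the local background. They lie at mm9 chr6:66985376-66985435 (minus), chr10:80394367-80394426 (plus) and chr13:51943733-51943792 (plus). *Gadd45g* was well above background on all 24 arrays, *Gadd45b* on 12 Norm and 10 Hypox arrays, and *Gadd45a* on 10 and 11.

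*Mdm2* and *Ccng1* are the feedback arm of p53 signalling. *Ccng1* encodes cyclin G1, a p53 target that recruits protein phosphatase 2A to MDM2. For *Mdm2*, Norm ran from -0.15 through 0.46 to 0.71 and Hypox from -0.24 through 0.54 to 2.31. Apart from Hypox replicate 2, which held the 2.31, the highest Hypox mouse was at 0.77. The difference of 0.21 ± 0.17 (SE, P-value = 0.219, adjusted 0.628) was 0.061 (P-value = 0.564) without that array. Without Hypox replicate 12, the lowest Hypox mouse, the difference was 0.29 (P-value = 0.0799). With both arrays left out, which was chosen after seeing the data, it was 0.13 (P-value = 0.15). The size of the mean difference thus depended on single arrays. The probe, at mm9 chr10:117126010-117126069 on the minus strand, was well above background on all arrays.

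*Ccng1* ran from -0.47 through -0.090 to 0.12 in Norm and from -0.21 through 0.019 to 0.26 in Hypox. Of the Hypox mice, 3 lay above the highest Norm mouse and 7 above the Norm median. The difference was 0.12 ± 0.077 (SE, P-value = 0.121, adjusted 0.53) with a 95% interval from -0.035 to 0.28. It was above 0 on 5 of 6 slides. Its size followed the processing, at 0.54 with median centring (P-value = 0.276), 0.34 with limma on the deposited values (P-value = 0.228) and 0.066 with Cy5 alone (P-value = 0.49). The probe (mm9 chr11:40562427-40562486, minus strand) was well above background on all 24 arrays.

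*Btg2* encodes an antiproliferative protein of the BTG/TOB family that recruits the CCR4-NOT deadenylase to mRNA, and it is induced by p53 and by many acute stimuli. Norm ran from -0.27 through 0.015 to 0.28 and Hypox from -0.14 through 0.24 to 0.53. In Hypox 10 of 12 mice lay above the Norm median and 4 above the highest Norm mouse. The means, 0.01 ± 0.16 and 0.20 ± 0.18 (SD, n = 12 each), differed by 0.19 ± 0.075 (SE), 1.14-fold, with a P-value of 0.0166 (adjusted 0.277). All 6 slides were above 0, from 0.0094 on slide 3 to 0.36 on slide 4. The larger differences, on slides 1 (0.35), 4 (0.36) and 5 (0.29), came where the spot was dim. It was not well above background on any array of slides 1 and 4, nor on Norm replicate 5 and Hypox replicate 1 of slide 5. On slides 2, 3 and 6, where every array had it well above background, the differences were 0.068, 0.0094 and 0.071. The part of dim readings in the difference was not tested.

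*Btg2* was the dimmest of the 10 genes, at 2.18 times the background, and its spot counted as well above background on 7 arrays of each group. It therefore left the table at a filter of 3 times background. With the processed signals of the scanner software its difference was 0.70 (P-value = 0.0188), and with limma on the deposited values 0.097 (P-value = 0.434). It did not pass without slide 4 (0.16, P-value = 0.0788) or without slide 5 (0.17, P-value = 0.0645). Its probe lies at mm9 chr1:135972094-135972153 on the minus strand.

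The promoters of *Btg2* (GRCm38.p6 chr1:134079106-134079405, minus strand) and of *Trp53inp2* (chr2:155381606-155381905, plus strand) are shown because both hold TGACGTCA, the full cAMP response element, which is present in 1.79% of all promoters, although the genes moved in opposite directions. Capitals mark this motif and CCAAT, also where it reads ATTGG on the other strand.

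Btg2: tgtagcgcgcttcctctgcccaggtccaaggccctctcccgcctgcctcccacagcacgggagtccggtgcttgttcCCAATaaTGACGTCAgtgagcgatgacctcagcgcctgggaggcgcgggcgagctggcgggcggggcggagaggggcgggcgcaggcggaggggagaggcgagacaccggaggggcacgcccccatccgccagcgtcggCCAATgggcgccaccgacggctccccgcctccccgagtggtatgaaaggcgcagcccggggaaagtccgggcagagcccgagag
Trp53inp2: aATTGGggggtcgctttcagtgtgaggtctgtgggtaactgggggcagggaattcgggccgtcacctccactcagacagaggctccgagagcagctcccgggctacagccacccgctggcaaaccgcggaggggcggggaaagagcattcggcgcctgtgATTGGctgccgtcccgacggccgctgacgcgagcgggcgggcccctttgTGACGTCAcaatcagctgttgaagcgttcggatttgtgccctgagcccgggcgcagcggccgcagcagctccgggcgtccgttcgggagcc

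GTAAACA, a forkhead site, was the remaining motif searched. It occurred in 3.65% of all promoters and in that of *Mdm2*. No promoter was at hand for *Cdkn1c* and *Trp53inp1*.

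*Trp53inp1* and *Trp53inp2* encode related proteins that bind LC3 and GABARAP and act in autophagy. *Trp53inp1* is a p53 target that also enhances p53 activity in the nucleus, whereas *Trp53inp2* (DOR) is abundant in skeletal muscle. *Trp53inp2* was lower in Hypox: Norm ran from -0.078 through 0.38 to 0.72 and Hypox from -0.15 through 0.10 to 0.58. Only 2 of the 12 Hypox mice, replicates 5 and 12, lay above the Norm median.

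The *Trp53inp2* difference was -0.19 ± 0.09 (SE), 0.879-fold, at a P-value of 0.0479 (adjusted 0.402). It was below 0 on 5 slides and at 0.26 on slide 2. This call was the least stable of the 5: dropping 1 array kept it in 8 of 24 fits and dropping a slide in 1 of 6 fits. The difference itself stayed between -0.22 and -0.15 with 1 array dropped and between -0.27 and -0.15 with a slide dropped. Without Hypox replicate 2 it was -0.16 (P-value = 0.0857). In the authors' normalized values the difference was 0.16. The probe (mm9 chr2:155215492-155215551, plus strand) had a Cy5 signal of 168 times the background.

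*Trp53inp1* ran from -0.23 through 0.061 to 0.40 in Norm and from -0.21 through 0.14 to 0.62 in Hypox. Its difference of 0.14 ± 0.09 (SE, P-value = 0.129, adjusted 0.543) had a 95% interval from -0.044 to 0.32. The 3 Hypox mice above the highest Norm mouse were replicates 10 (0.62), 5 (0.52) and 8 (0.47). Slide 1, the dimmest, gave -0.22, and without it the difference was 0.21 (P-value = 0.0363). It was smaller without slide 2 (0.096, P-value = 0.316) and without slide 4 (0.081, P-value = 0.407). With Cy5 alone it was 0.0053 (P-value = 0.961). Of its 2 probes, that at mm9 chr4:11101174-11101233 was tested, and that at chr4:11092530-11092589 was at background (1.30 times). The tested probe averaged 3.43 times the local background. It was well above background on 8 Norm and 10 Hypox arrays, and on no array of slide 1.

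Few pairs of the 10 genes varied together between mice. Deviations from the group means were correlated over the 24 mice for all 45 pairs, and r ranged from -0.49 to 0.53. Pairs outside the 10 genes were not put through the test below, so its counts have no share of all gene pairs beside them. At an unadjusted P-value below 0.05, 6 pairs passed in a 2-sided permutation test within groups (100000 permutations), and 0 pairs passed after adjustment over the 45, with a lowest adjusted P-value of 0.256. The strongest was *Gadd45a* with *Trp53inp1* (r = 0.53, P-value = 0.0123; rho = 0.47, P-value = 0.0254, adjusted 0.391). It had r = 0.82 among Hypox mice and 0.0045 among Norm mice, a difference that was not tested. Without the 2 arrays farthest from the *Gadd45a* median r was 0.27, so that the relation rests on them, and with the group means of each slide removed it was 0.48.

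*Gadd45a* with *Ccng1* was more even (r = 0.49, P-value = 0.0171, adjusted 0.256; rho = 0.44, P-value = 0.0354, adjusted 0.391), with r = 0.44 without the 2 arrays and 0.63 within slides. *Gadd45b* with *Mdm2* had a rho of 0.60 (P-value = 0.00224, adjusted 0.101) and an r of 0.43 (P-value = 0.0268, adjusted 0.256), which became 0.30 without the 2 arrays and 0.49 within slides. Within slides 9 of the 45 pairs passed unadjusted and 0 adjusted, and the strongest there was *Gadd45a* with *Mdm2* (r = -0.81, P-value = 0.00187, adjusted 0.0842), against -0.45 without the removal of slide means (P-value = 0.0621, adjusted 0.31).

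Over the whole table, the genes whose deviations were most like those of *Gadd45b* were *Naxd* (r = 0.89), *Smco1* (0.85) and *Cstf1* (0.84), out of 9054 genes measured in all 24 mice. Those closest to *Gadd45g* were *Jun* (r = 0.73), *Prpsap1* (0.73) and *Exoc8* (0.72). *Jun*, a subunit of AP-1, was nevertheless lower in Hypox (-0.30, P-value = 0.00452, adjusted 0.194) where *Gadd45g* was higher. For *Gadd45a* they were *Marchf8* (0.81), *Rngtt* (0.81) and *Ghitm* (0.79). These values are the highest of many and share arrays and slides, so they are a description.

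The genes nearest to *Mdm2* were *Chmp4b* (r = 0.96), *H2ac12* (0.95) and *Snrnp40* (0.94), and without the 2 arrays farthest from the *Mdm2* median, Hypox replicate 2 among them, these were 0.82, 0.79 and 0.88. Among the genes nearest to *Cdkn1c* were *Gnai2* (0.92) and *H2bc14* (0.90), which likewise became 0.76 and 0.73. *Btg2* was closest to *Smc4* (0.76), *Eif3k* (0.74) and *H2az2* (0.73), and *Ccng1* to *Phka2* (0.72), *Lcmt1* (0.71) and *Idnk* (0.70). *Cdkn1a* was closest to *Mrm3* (0.76), *Acot2* (0.66) and *Odf3l2* (0.66), *Trp53inp1* to *Katnal1* (0.79), *Hddc2* (0.76) and *Gda* (0.73), and *Trp53inp2* to *Utp6* (0.86), *Myot* (0.76) and *Bub3* (0.76).

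Around the 10 genes, 103 further genes of the pathway from 9 lists were tested, and 16 of them passed the unadjusted threshold, beside 12.2% of all genes. None of the lists had a gene past the adjusted threshold. The probe of *Trp53* itself, which encodes p53, was at background (1.31 times) and well above it on 0 of 24 arrays, so that no difference is given for it.

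Of 10 p53 regulators tested, *Rchy1*, which encodes the ubiquitin ligase PIRH2, rose by 0.17 (P-value = 0.0247), and *Trp63*, the p53 relative p63, and *Hipk2*, a kinase that phosphorylates p53, fell by 0.25 (P-value = 0.00909) and 0.21 (P-value = 0.0407). The *Trp63* value rests on 1 of its 4 probes, the other 3 having averaged 1.14 to 1.37 times background. The list median was 0.0019. Of 27 other p53 targets, 18 were above 0 and 9 below, and 2 passed as higher and 1 as lower: *Epha2*, an ephrin receptor, by 0.30 (P-value = 0.00112), *Cdk5rap3* by 0.21 (P-value = 0.0394), and *Tigar*, which lowers fructose-2,6-bisphosphate, by -0.22 (P-value = 0.0323). Their median was 0.039, near the 0.029 of all genes. *Bax*, the pro-apoptotic target, differed by 0.027 (P-value = 0.812) and *Sesn1*, a sestrin, by 0.14 (P-value = 0.219).

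Among 13 other BTG/TOB and growth arrest genes, *Tob1*, a relative of *Btg2*, fell by 0.40 (P-value = 0.000369), and *Gas5*, a non-coding growth arrest transcript, fell by 0.43 (P-value = 0.0274). *Ddit4*, which encodes the mTORC1 inhibitor REDD1 and is a target of both HIF1 and p53, rose by 0.53 (P-value = 0.00147). *Btg1* differed by 0.034 (P-value = 0.742).

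Of the G1 genes, cyclins, *Cdk4*, E2F factors, *Pcna* and *Cdc25a* were tested. No gene passed among 5 other CDK inhibitors and pocket proteins, these 12 G1 genes and 7 MAP kinases that GADD45 proteins act on. The smallest P-values there were 0.305 for *Cdkn2c* (0.10), 0.168 for *E2f1* (0.11) and 0.197 for *Map2k6* (-0.12). Of 24 proliferation markers 7 were bright enough to test, and *Mcm3* (0.19, P-value = 0.0129) and *Mcm4* (0.23, P-value = 0.0326), subunits of the replicative helicase, were higher. The other helicase subunits tested, *Mcm2* (-0.083, P-value = 0.35), *Mcm6* (-0.054, P-value = 0.568) and *Mcm7* (0.066, P-value = 0.395), did not pass, and 4 of the 7 were below 0, with a median of -0.030. Of 13 autophagy partners of the TP53INP proteins, *Becn1* (0.27, P-value = 0.0165) and *Atg12* (0.16, P-value = 0.0403) were higher, with a list median of 0.11. Of 9 immediate early genes *Ccn1* rose by 0.40 (P-value = 0.00212) and *Nr4a1* and *Jun* fell by 0.39 (P-value = 0.000576) and 0.30 (P-value = 0.00452).

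Single markers of several cell types passed the unadjusted threshold as well, beside 12.2% of all genes. None of the markers passed after adjustment. All 4 adipocyte and all 6 nerve markers tested were at or below 0 in the Hypox minus Norm difference, with *Cfd* at -0.56 (P-value = 0.0177) and *Pmp22* at -0.41 (P-value = 0.0371), and 2 of each list passed. Of 3 macrophage markers tested 1 was higher and 2 were lower, with a median of -0.082, and none passed. The adipocyte markers had a mean log2 ratio between -0.57 and 0.71 over the Norm mice and between -0.66 and -0.055 over the Hypox mice, and the nerve markers between -0.40 and 0.50 and between -0.54 and 0.18. *Plin1* and *Lep* averaged under 2 times background, although they were well above it on 5 Norm and 4 Hypox arrays and on 6 of each. Of 14 muscle fibre markers 10 were lower and 4 higher, with a median of -0.23, and the 1 that passed, *Mylpf*, was higher by 0.36 (P-value = 0.000905). All 3 red blood cell markers tested were higher, with a median of 0.15, and none passed. Of 6 endothelial markers tested 3 were higher and 3 lower, with a median of 0.0082. *Cdh5* and *Esam* passed, at 0.38 and 0.28, whereas *Kdr* (-0.15, P-value = 0.235) and *Flt1* (-0.045, P-value = 0.658) did not, and *Pecam1*, *Tek* and *Emcn* averaged under 2 times background and were not tested. Of 7 fibroblast markers 4 were higher and 3 lower, with a median of 0.053. *Dcn* (-0.37) and *Col1a2* (-0.40) passed, *Col3a1* (0.22, P-value = 0.197) did not. Of the satellite cell markers *Cdh15* was the only 1 of 6 above the filter, and it passed (0.25, P-value = 0.0498). *Sftpc*, a lung gene, was higher by 0.81 (P-value = 0.0153). It was well above background on 0 Norm and 4 Hypox arrays, and the other 5 lung markers averaged under 2 times background. Of these, *Sftpb* was well above background on 0 Norm and 3 Hypox arrays, *Scgb1a1* on 1 and 2, and *Sftpd*, *Sftpa1* and *Ager* on 0 and 1 each. The mean log2 ratio of the lung markers lay between -0.48 and -0.087 over the Norm mice and between -0.33 and 1.39 over the Hypox mice, the highest being Hypox replicate 8. Without these 4 arrays, 3 of the 10 genes passed beside 11.2% of all genes, *Gadd45b* at -0.43 (P-value = 0.000668), *Gadd45g* at 0.27 (P-value = 0.0429) and *Gadd45a* at 0.27 (P-value = 0.0484). The part of the other markers in the differences of the 10 genes was not tested.

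Whether a gene passed also followed the way the arrays were processed. *Gadd45g*, *Gadd45a*, *Btg2* and *Cdkn1a* were above 0 under each of the alternatives shown, and so were *Mdm2*, *Ccng1* and *Trp53inp1*. Of these, *Cdkn1a*, *Mdm2*, *Ccng1* and *Trp53inp1* did not pass in the reported fit, and *Trp53inp1* was at 0.0053 with Cy5 alone. Median centring, used instead of loess, put the median of all genes at 0.25. It left *Gadd45b* at 0.0066 and *Trp53inp2* at 0.35. Under that centring 0 of the 10 genes and 0.35% of all genes passed unadjusted. *Cdkn1a* passed with the processed signals (0.35, P-value = 0.0492), with Cy5 alone (0.19, P-value = 0.0471) with an offset of 16 (0.23, P-value = 0.0444) and with array weights (0.20, P-value = 0.0364). *Gadd45a* lost its call with those signals (0.29, P-value = 0.0973) or with Cy5 alone (0.14, P-value = 0.23), and *Trp53inp2* lost its call with Cy5 alone (-0.14, P-value = 0.202) and with an offset of 16 (-0.14, P-value = 0.13). With array weights *Btg2* passed the adjusted threshold too (0.23, adjusted P-value = 0.0479), where 277 genes passed in all.

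**Figure D5:**
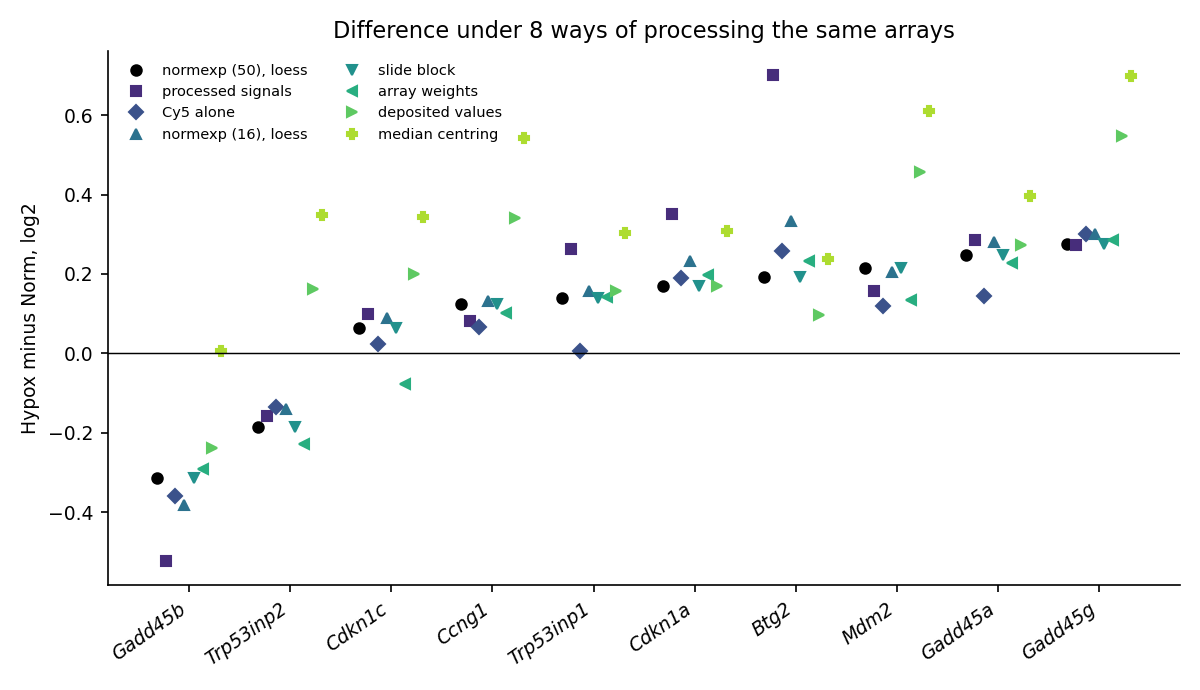
Hypox minus Norm difference (log2) of each gene under 8 ways of processing the same 24 arrays, 1 symbol for each way and the reported values as black circles. Median centring shifts all genes upwards (0.25 for the median of all genes), and *Gadd45b* stays below 0 under the other 7.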

How the data were processed

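Total RNA of *M. gastrocnemius* from 12 Norm and 12 Hypox mice was measured on 24 2-colour Agilent arrays. For every array the authors deposited scanner output of Agilent Feature Extraction 10.7.3.1, which gives the mean intensity and the local background of a spot in both channels, not normalized between arrays. The log2 values in the authors' series table were normalized by them in GeneMaths XT, with the scaling and the use of the Cy3 channel not given in the sources used here. The dye assignment follows the sample descriptions, because 5 Hypox samples carry other dye names in their labels.

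7260 flagged readings and all control spots were dropped. Signals were corrected with normexp (offset 50), log2 Cy5/Cy3 ratios normalized by loess within arrays, and the spots of a probe averaged. Probes were kept where Cy5 averaged over 2 times the local background, with values missing on no more than 4 arrays (14311 of 55681). Each gene was represented by its brightest probe (mean log2 intensity of both channels). The probes tested were well above background on 7 to 12 arrays per group, which limits the precision for dim ones. The 2 groups were compared with the moderated test of limma, with Benjamini-Hochberg adjustment over the 9138 genes. The tests were tested on simulated data.

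The 10 genes and the lists around them were chosen with earlier results of these data known. Named besides the 10 genes are up to 3 genes per list with the smallest P-value, the 3 genes most correlated with each, and the brightest markers, with a few others chosen after their values were seen. One gene that this rule includes is not reported here. Promoters are RefSeq's for GRCm38.p6, and probe positions are those of the scanner output on mm9, where exons and UTRs were not annotated here.

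The alternatives were other signals, normalizations, filters and tests, blocks for slide or for replicate number, weights per array, and fits without single arrays or slides. The fits were run in R 4.3.3 with limma 3.58.1, and the permutations, motif searches and plots in Python 3.11.15 (matplotlib 3.10.9, numpy 2.4.6, pandas 2.3.3).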

Additional observations from a re-analysis of the deposited data

How the results depend on the processing

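The count of 5 of 10 genes past the unadjusted threshold became 0 with median centring or with limma on the deposited values, 1 with the t-test of the methods on the deposited values, 3 with a filter at 3 times background (9 genes tested), and 3, 2 and 2 without slides 2, 4 and 5. The shares of all genes tested that passed under these settings were 0.35%, 4.39%, 4.81%, 12.6%, 10.8%, 9.51% and 8.98%, compared with 12.2% in the reported fit. It ranged from 3 to 6 when 1 array was left out, with 3 without Norm replicates 3 and 6 and without Hypox replicate 10. It was 3 without the arrays with *Sftpc* above background (11.2% of all genes), an alternative chosen after seeing the data. The same holds for the count over member probes, which was 0, 0, 1, 3, 3, 2 and 2 under these settings, and 3 to 6 with 1 array left out. The count past the adjusted threshold was 1 with array weights and 0 under all other settings run. Of the 103 pathway genes, 2 passed with median centring, 4 on the deposited values with either test and 10 without slide 4, against 16 in the reported fit. The 6 correlated pairs became 3 without the 2 arrays farthest from the median. *Cdkn1c* reversed to -0.078 with array weights, -0.036 without Hypox replicate 12 (with 1 array left out it ranged from -0.036 to 0.097), -0.083 without slide 1 and -0.10 with Hypox replicates 2 and 12 both left out (chosen after seeing the data). *Gadd45b* reversed to 0.0066 with median centring, and *Trp53inp2* to 0.35 with median centring and 0.16 on the deposited values with either test. The cause of these changes was not tested.

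The replicate numbers of the labels did not pair the arrays: same-numbered arrays had a median correlation of 0.0086, over 0.1 in 3 of 12 pairs. With the replicate block, 4 of the 10 genes and 13.1% of all genes passed, *Trp53inp2* being the 1 lost (P-value = 0.0532). Dim probes such as that of *Btg2* limit what the arrays can show.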
